A study of Mus musculus with 13 samples.

Results

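The STAT family genes examined here were Stat2, Stat3, Stat4, Stat5a, Stat5b and Stat6, 6 of the 21887 protein-coding genes of the mouse reference annotation. Every called region inside these genes or within 50 kb of their mm10 bounds was taken from 18 deposited lists, which gave 129 of 121823 list entries. Stat5b, Stat5a and Stat3 lie side by side on chromosome 11 and were treated as a shared locus, so the 6 genes made 4 loci. Entries of different lists that overlapped by at least 1 bp were joined, which gave 47 sites.

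The lists come from chromatin immunoprecipitation with sequencing (ChIP-seq) in Ba/F3, a mouse pro-B cell line that needs interleukin 3 (IL3) to grow and that is kept in 1 ng/mL IL3. The groups were cells held for 6 h in medium lacking IL3 (without IL3) and cells held likewise for 6 h and then exposed to IL3 at 10 ng/mL for 30 min (with IL3). STAT5A, the histone demethylase LSD1 and the histone deacetylase HDAC3 were each precipitated in 2 biological replicates per condition, 12 libraries in all, and 6 further lists come from calling on the replicates of a group pooled. All groups are of this single cell line, with no genotype given beyond it, and an input DNA sample was not used here.

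STAT proteins wait in the cytoplasm until a JAK kinase bound to a cytokine receptor phosphorylates them on a tyrosine, after which they pair through their SH2 domains, enter the nucleus and bind DNA. Most STAT dimers bind TTCNNNGAA, and STAT6 also binds the longer form with 4 bases of any kind between TTC and GAA. STAT5A and its close paralogue STAT5B carry the IL3 signal, STAT3 answers the IL6 family, STAT4 IL12, STAT6 IL4 and IL13, and STAT2 type I interferon together with IRF9. The genes are described here as places where STAT5A, LSD1 and HDAC3 were called, so the values say where these proteins were found on DNA and nothing of how strongly the STAT genes were transcribed.

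The start-site windows below are among those overlapped by STAT5A with IL3. The first is at the site with the highest rank near Stat4, the second at the start of Stat2 and the third at the start of Stat5b. The Stat5b window was overlapped by the STAT5A region of replicate 2 with IL3 alone. The other STAT5A regions of that site, those without IL3 among them, lay outside the window. They run from 250 bases before to 50 after the start (RefSeq, GRCm38.p6, which is mm10) and read 5′ to 3′ along the gene. Capitals mark a match to TTCNNNGAA in the Gm31812 window (chr1:52113841-52114140, minus strand) and to the longer form in the Stat2 window (chr10:128270248-128270547, plus strand). The Stat5b window (chr11:100850532-100850831, minus strand) holds neither. The windows of Stat3 (replicate 1 and pooled list) and Nab2 (replicate 2) were also overlapped by STAT5A with IL3. They hold neither pattern and are not shown.
Gm31812: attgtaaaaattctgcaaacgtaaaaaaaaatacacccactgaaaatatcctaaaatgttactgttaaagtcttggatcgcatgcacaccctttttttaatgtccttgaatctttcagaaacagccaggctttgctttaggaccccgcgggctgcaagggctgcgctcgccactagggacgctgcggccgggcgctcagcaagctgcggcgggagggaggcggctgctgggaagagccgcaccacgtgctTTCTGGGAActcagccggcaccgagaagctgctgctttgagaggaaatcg
Stat2: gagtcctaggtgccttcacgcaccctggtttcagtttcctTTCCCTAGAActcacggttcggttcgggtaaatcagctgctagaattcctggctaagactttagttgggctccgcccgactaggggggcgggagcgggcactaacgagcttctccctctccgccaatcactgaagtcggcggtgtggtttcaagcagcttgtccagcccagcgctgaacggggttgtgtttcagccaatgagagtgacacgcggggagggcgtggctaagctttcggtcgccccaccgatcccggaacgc
Stat5b: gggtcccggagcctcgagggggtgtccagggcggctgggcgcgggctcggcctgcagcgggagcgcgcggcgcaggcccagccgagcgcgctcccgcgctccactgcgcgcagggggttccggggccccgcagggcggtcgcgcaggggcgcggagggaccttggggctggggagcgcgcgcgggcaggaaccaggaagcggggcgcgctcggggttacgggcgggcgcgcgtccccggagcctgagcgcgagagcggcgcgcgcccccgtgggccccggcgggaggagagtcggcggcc

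Both patterns are palindromic, so a match on one strand is a match on the other. TTCNNNGAA is found in 8.3% of 32851 such windows of the annotation, and in 15.1% of the 2616 windows that a pooled STAT5A region with IL3 overlapped. The longer form is found in 6.95% of all windows and in 5.73% of the overlapped ones. The match in the Gm31812 window, TTCTGGGAA at chr1:52113882-52113890, lies 18 bp from the centre of the pooled STAT5A region with IL3, and the match in the Stat2 window, TTCCCTAGAA at chr10:128270288-128270297, lies 10 bp from the centre of its pooled STAT5A region. The windows of Stat4, Stat5a, Stat5b, Stat3 and Stat6 and of the neighbours Nab2 and Pan2 hold neither pattern, which says only that these letters are not in those windows.

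Each region carries a score deposited by the authors, on a scale that no source used here defines, so scores were used as ranks within their own list (rank 1 is the highest, and ties share the better rank). Low scores in a list are whole multiples of a single step, and dividing by it gives score steps. The weakest regions of the lists held 4 to 6 steps, and binding under that floor was not detectable. The replicate lists held from 265 to 15786 regions. LSD1 without IL3 replicate 1 (1007 regions) and STAT5A without IL3 replicate 1 (354 regions) were much shorter than the other list of their group (15786 and 4513), and read depth is not given in the sources used here. HDAC3 with IL3 replicate 2 stood apart from the rest. A single region on chromosome 2 took 74.2% of its summed score, and 31 of its 265 regions were off the assembled chromosomes. Results that rest on it are given with and without it. With 2 replicates per group, the p-values measure the spread between these libraries, and a two-sided exact permutation test of 2 against 2 cannot go below 0.333.

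With IL3, both replicate lists held STAT5A regions at each of the 4 loci. Replicates 1 and 2 held 6 and 3 at Stat6, 3 and 2 at the Stat5b-Stat5a-Stat3 locus, 3 and 1 at Stat2 and 2 and 1 at Stat4. Without IL3 they held 0 and 2 at the Stat5b-Stat5a-Stat3 locus and 0 and 0 at each other locus. The pooled list with IL3 held 8 of its 15 such regions at the Stat5b-Stat5a-Stat3 locus. It held 2, 3 and 2 at Stat4, Stat6 and Stat2. Over all 4 loci, STAT5A had 14 regions in replicate 1 and 7 in replicate 2 with IL3, against 0 and 2 without. The groups did not overlap, and the mean was 10.5 ± 4.95 with IL3 and 1.0 ± 1.41 without (SD, n = 2 each; exact permutation p = 0.333, the smallest this design allows). The difference of 9.5 became 6.0 without replicate 1 with IL3. As a share of the replicate list, the regions at the loci were 0.103% and 0.111% of all regions with IL3 against 0% and 0.0443% without. In the pooled lists the shares were 0.0965% with IL3 and 0.0792% without. With each replicate list reduced to its 354 highest-scoring regions, the length of the shortest, the mean difference was 1.0 (exact permutation p = 1). Gene by gene, STAT5A numbers within 50 kb were higher in both replicates with IL3 than in both without at 3 of the 6 genes, Stat4, Stat6 and Stat2, against 18.0% of all genes. The number of regions moved with list length, whose part in the difference was not tested.

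For the other proteins, replicates of the same condition differed by more than the means of the conditions did, in both conditions for LSD1 and with IL3 for HDAC3. LSD1 had 7 and 14 regions with IL3 and 1 and 15 without, a mean difference of 2.5 (exact permutation p = 1) that ran from −4.5 without replicate 1 without IL3 to 9.5 without replicate 2 without IL3, was 6.0 without replicate 1 with IL3 and was −1.0 without replicate 2 with IL3. HDAC3 had 1 and 7 with IL3 and 1 and 0 without, a mean difference of 3.5 (exact permutation p = 0.667), and it was 0.5 without replicate 2 with IL3 and 6.5 without replicate 1 with IL3. The groups overlapped for both proteins.

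**Figure D1:**
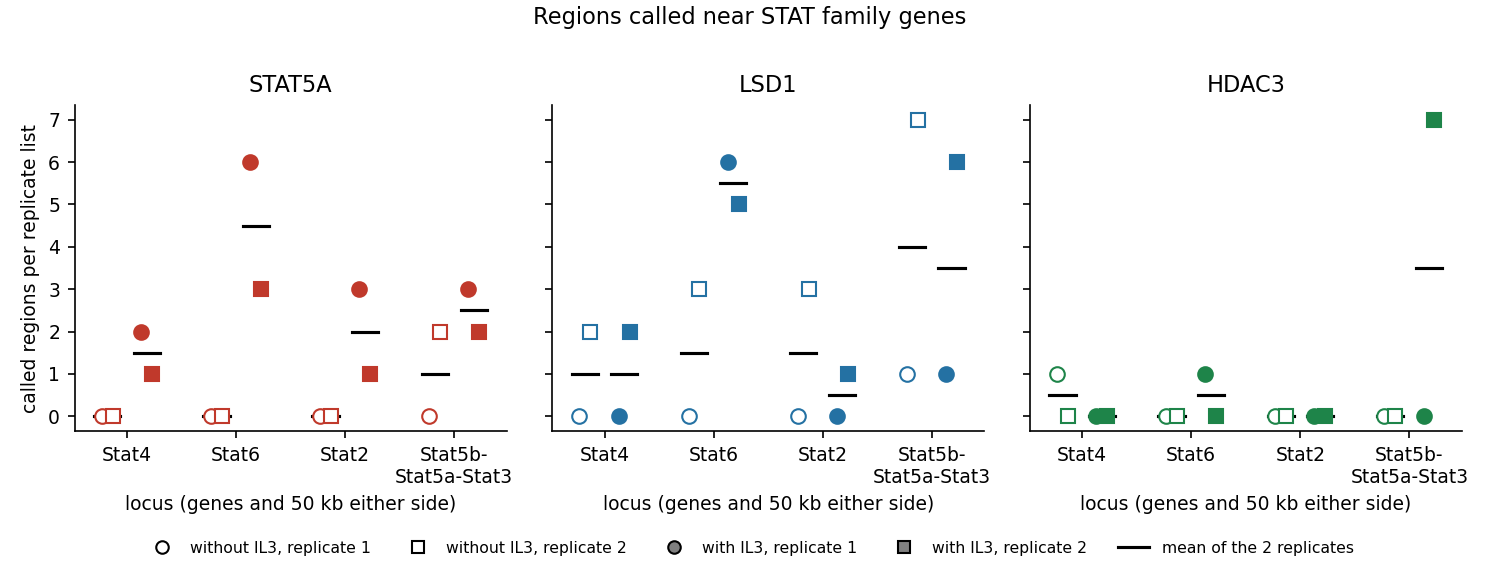
Called regions per replicate list (vertical axis) at the 4 loci, by protein, with circles for replicate 1, squares for replicate 2, open symbols without IL3, filled symbols with IL3 and bars for means. At Stat4, Stat6 and Stat2 the filled STAT5A symbols lie above 0 and the open ones at 0, and the filled HDAC3 square at 7 is the library that stood apart.

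In the pooled lists, all 6 genes had a STAT5A region with IL3 inside or within 50 kb, and 4 of 6 had one without IL3. Over all protein-coding genes the shares were 61.4% with and 40.9% without IL3, so such a region is common. LSD1 regions lay near 6 of 6 genes without IL3 and 5 of 6 with it, against 63.0% and 64.7% of all genes, Stat2 being the gene with none in the pooled list with IL3. HDAC3 regions lay near 4 of 6 genes in each condition, against 24.4% of all genes without IL3 and 10.8% with it. In the list of replicate 1 with IL3, the library that did not stand apart, HDAC3 lay near 1 of 6 genes, Stat6, against 5.41% of all genes. In the pooled lists of each condition 3 of these 4 are the neighbours Stat5b, Stat5a and Stat3, which share their regions.

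A STAT5A region was counted as gained when both replicates with IL3 and neither replicate without IL3 held it. Of the 19 merged STAT5A regions at the 4 loci, 3 were gained (15.8%), against 8.72% of all 20764 merged STAT5A regions, and none was lost in the reverse sense, against 0.0482%. The gained regions lay 1 each at Stat4, Stat6 and Stat2, so 3 of the 6 genes had such a region within 50 kb, against 15.6% of all genes. With the lone remaining library with IL3 as the condition, the count was 6 without replicate 1 and 14 without replicate 2. None of the 3 lay inside a STAT gene, and none lay at the Stat5b-Stat5a-Stat3 locus. No LSD1 region of 23 was gained or lost at the loci, where 3.36% and 0.319% of all LSD1 regions were, and no HDAC3 region of 9, where 0.0389% and 3.58% were. Leaving out any library drops a condition on these counts, which can then only stay or rise. LSD1 gained became 4 without replicate 2 without IL3, 4 without replicate 1 with IL3 and 3 without replicate 2 with IL3, and LSD1 lost became 5 without replicate 1 without IL3 and 1 without replicate 2 without IL3. HDAC3 gained became 7 without replicate 1 with IL3, which leaves the library that stood apart, and 1 without replicate 2 with IL3. HDAC3 lost became 1 without replicate 2 without IL3, and STAT5A lost became 1 without replicate 1 without IL3. At counts as small as these, a share near the background and a share well above it differ by a region or so.

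At Stat4, which encodes the STAT that IL12 activates in T and natural killer cells, none of the 18 lists held a region inside the gene (chr1:51987106-52107189, plus strand). STAT5A was called 6.59 kb beyond its 3′ bound, at the start of the long non-coding RNA gene Gm31812, whose window is printed above. With IL3 the score there was 242.4 in replicate 1 (rank 673 of 13574) and 105.0 in replicate 2 (rank 245 of 6288), and neither list without IL3 held a region. Both replicates with IL3 thus placed it in the upper 5 percent of their lists, at 4.96% and 3.9% from the top, and the pooled list ranked it 535 of 15546.

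The same 259 bp held regions of the other proteins. LSD1 was called there in replicate 2 of each condition, with a score of 24.4 without IL3 (rank 9130 of 15786) and 29.3 with IL3 (rank 3663 of 11570), and in neither replicate 1. HDAC3 was called in replicate 1 without IL3 (39.5, rank 646 of 1632) and in the pooled list without IL3 (22.2, rank 839 of 3350), and in no HDAC3 list with IL3. STAT5A was therefore called there with IL3 and HDAC3 without it, the latter in 1 of 2 replicates, a difference of 1 region that the replicates do not separate. TTCTGGGAA in the Gm31812 window was covered by 9 of the 18 lists, the 3 STAT5A lists with IL3 among them. Weaker regions of STAT5A and LSD1 lay about 12 kb beyond Stat4, where STAT5A with IL3 replicate 1 scored 22.4 (rank 10922 of 13574).

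At Stat6, which encodes the mediator of IL4 and IL13 signals, STAT5A had 6 and 3 regions with IL3 and 0 and 0 without (difference 4.5, exact permutation p = 0.333). LSD1 had 6 and 5 with IL3 and 0 and 3 without (difference 4.0, exact permutation p = 0.333). Neither pair of groups overlapped. For LSD1, region numbers higher in both replicates with IL3 than in both without were found at 1 of the 6 genes, Stat6, against 2.25% of all genes. With each list reduced to the length of the protein's shortest, the STAT5A difference was 0.5 (exact permutation p = 1) and the LSD1 difference 1.0 (exact permutation p = 0.667). The LSD1 list with 0 is the short one of 1007 regions, and without it the LSD1 difference was 2.5, while the STAT5A difference was 3.0 without replicate 1 with IL3.

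The site of the highest ranks at this locus was not at Stat6 itself but 38.1 kb before its start, at chr10:127604555-127604821, inside Lrp1, which encodes an endocytic receptor, and inside the long non-coding RNA gene Gm51820. STAT5A with IL3 scored 227.5 in replicate 1 (rank 754 of 13574) and 120.0 in replicate 2 (rank 185 of 6288), and neither list without IL3 held it. LSD1 was called there without IL3 in replicate 2 (121.9, rank 240 of 15786) and with IL3 in replicate 1 (84.2, rank 53 of 6479) and replicate 2 (106.6, rank 116 of 11570). Here LSD1 stood high in its lists in both conditions, within the upper 1.52% of the 3 replicate lists that held it, whereas STAT5A was called with IL3 alone. HDAC3 was called in replicate 1 with IL3 (19.2, rank 384 of 683) and in the pooled list with IL3 (15.8, rank 508 of 1208), and in no HDAC3 list without IL3. Together with the site at Gm31812, this was 1 of 2 sites among the 47 where all 3 proteins were called, and HDAC3 was called in opposite conditions at the 2.

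The start of Stat6 (chr10:127642955-127660987, plus strand) held an LSD1 region with IL3 in replicate 2 (24.0, rank 5852 of 11570) and, 0.386 kb before the gene's bound, another in replicate 1 (19.8, rank 3215 of 6479). These lay in the middle of their lists, did not overlap, and had no STAT5A or HDAC3 partner. Beyond the 3′ bound of Stat6, regions gathered around the start of Nab2, which encodes a corepressor of EGR transcription factors. At the Nab2 start LSD1 was called without IL3 in replicate 2 (42.7, rank 2974 of 15786) and with IL3 in replicate 1 (29.7, rank 1037 of 6479) and replicate 2 (53.3, rank 798 of 11570). STAT5A was called there with IL3 in replicate 2 (45.0, rank 1509 of 6288), and among the pooled STAT5A lists in that without IL3 (16.8, rank 2114 of 5051) and not in that with IL3. Within 3.53 kb before the Nab2 start, STAT5A with IL3 replicate 1 had 3 regions, the highest of them scoring 85.8 (rank 2685 of 13574), and replicate 2 had 1 of 45.0, at positions that did not coincide between the replicates. The start of Nemp1, an inner nuclear membrane protein gene, held LSD1 in the same 3 replicate lists as the Nab2 start and no STAT5A or HDAC3.

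At Stat2, which encodes the partner of IRF9 in the interferon-activated complex, STAT5A had 3 and 1 regions with IL3 and 0 and 0 without (difference 2.0, exact permutation p = 0.333). The difference was 1.0 without replicate 1 with IL3 and 0.0 with lists of equal length. LSD1 had 0 and 1 with IL3 and 0 and 3 without (exact permutation p = 1), each of them at rank 5852 or further down, and HDAC3 had no region in any of its 6 lists. No list held a region inside Stat2 (chr10:128270498-128292853, plus strand). Just before its start, at chr10:128270215-128270396, which also lies inside the bounds of Apof, STAT5A with IL3 replicate 1 scored 119.3 (rank 1844 of 13574) and the pooled list 76.9 (rank 1917 of 15546). Replicate 2 with IL3 and both replicates without IL3 held no region there, so this start-site region, over TTCCCTAGAA in the window printed above, was seen in 1 of 2 replicates.

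The gained region of this locus lay 10.7 kb beyond the 3′ bound of Stat2 and 341 bp after the start of Pan2, which encodes a subunit of a poly(A) nuclease. STAT5A with IL3 scored 335.6 in replicate 1 (rank 359 of 13574, 90 steps) and stood at rank 1176 of 6288 in replicate 2 (10 steps), and neither list without IL3 held it. In replicate 1 and the pooled list with IL3, it ranked highest of the STAT5A regions at the 4 loci. In replicate 2 the sites in Lrp1 (rank 185) and at Gm31812 (rank 245) ranked above it. The replicates placed the region at Pan2 2.64% and 18.7% from the top of their lists. No LSD1 or HDAC3 list held a region there. Il23a, which encodes a subunit of IL23, lies between Stat2 and Pan2 and held 1 LSD1 region without IL3 in replicate 2, at rank 15484 of 15786.

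**Figure D2:**
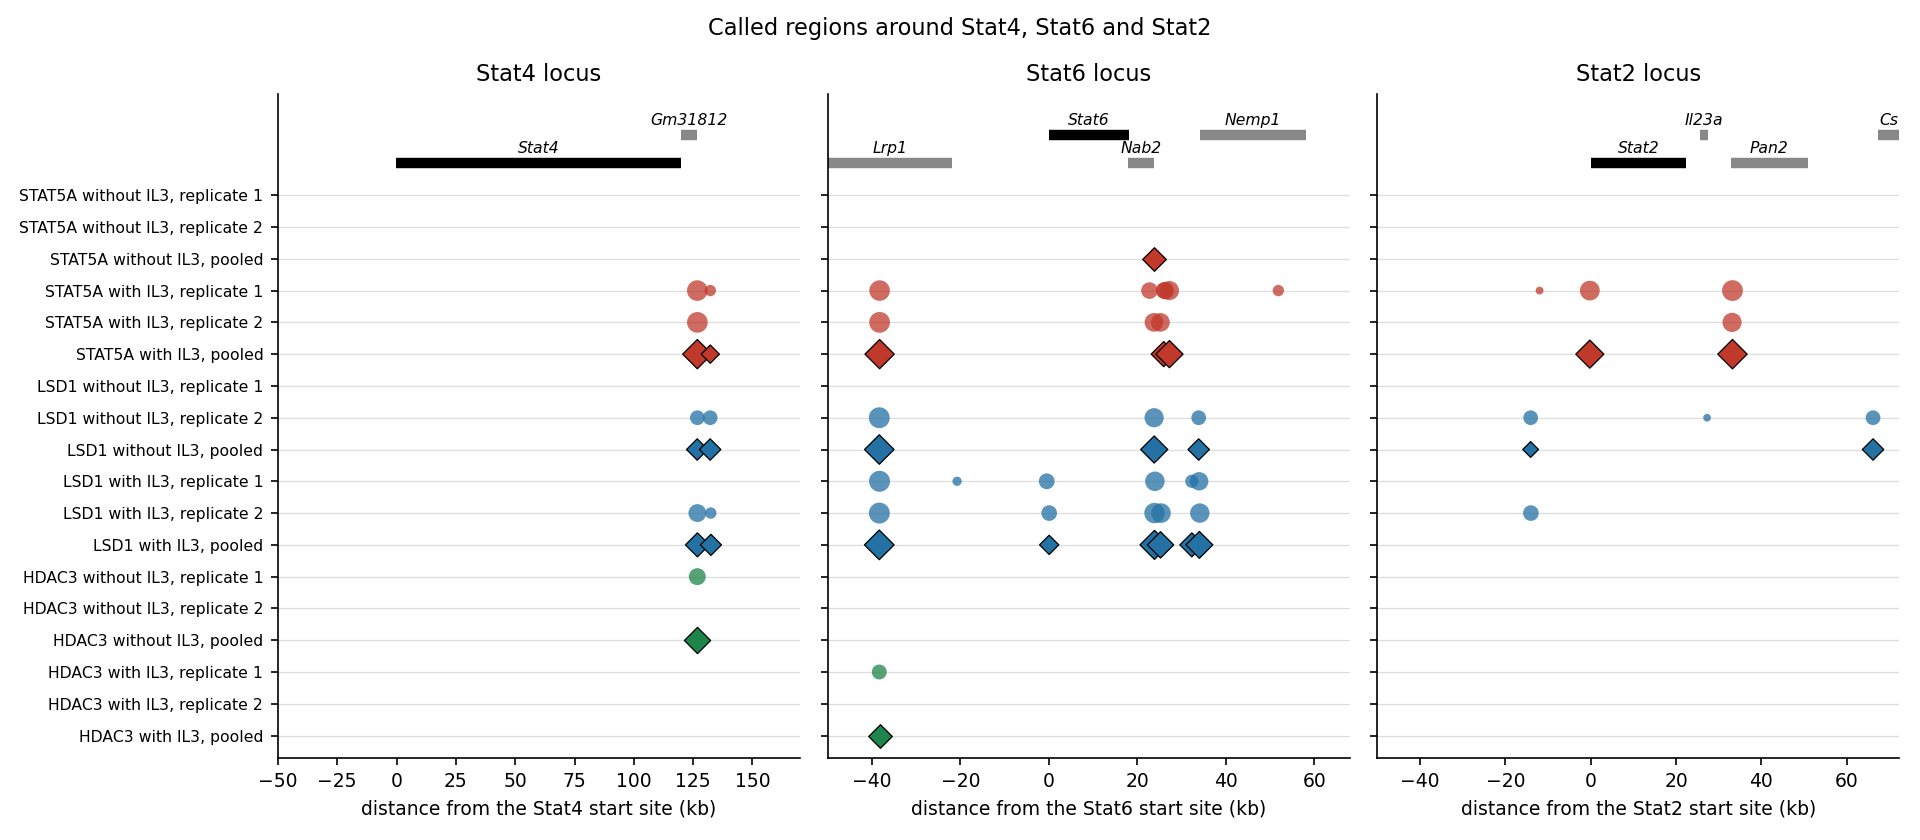
Centres of called regions in the 18 lists (rows) at the Stat4, Stat6 and Stat2 loci by distance from each gene's start site in kb, with circles for replicate lists, diamonds for pooled lists, larger symbols for higher places in the list, black bars for STAT genes and grey bars for neighbours. In each STAT5A list with IL3, the largest symbol of a locus lies 6.59 kb beyond Stat4, 38.1 kb before Stat6 or 10.7 kb beyond Stat2, outside the bounds of the STAT genes. The STAT5A symbols just before the Stat2 start, in replicate 1 and the pooled list with IL3, are also large.

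At the locus of Stat5b, Stat5a and Stat3, which encode the 2 IL3-activated STATs and the IL6-activated one, STAT5A regions stood lower in their lists than at the other 3 loci. There were 3 and 2 with IL3 and 0 and 2 without (difference 1.5, exact permutation p = 0.667), so the groups overlapped. The highest-scoring of them was at rank 7119 of 13574 in replicate 1 and rank 2842 of 6288 in replicate 2 with IL3, and at rank 2551 of 4513 in replicate 2 without IL3, all near the middle of their lists and at 6 to 9 steps. By contrast, the highest STAT5A ranks with IL3 at the other 3 loci lay between rank 359 and rank 754 in replicate 1 and between rank 185 and rank 1176 in replicate 2. None of the 4 replicate lists or 2 pooled lists of STAT5A held a region inside Stat5a.

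**Figure D3:**
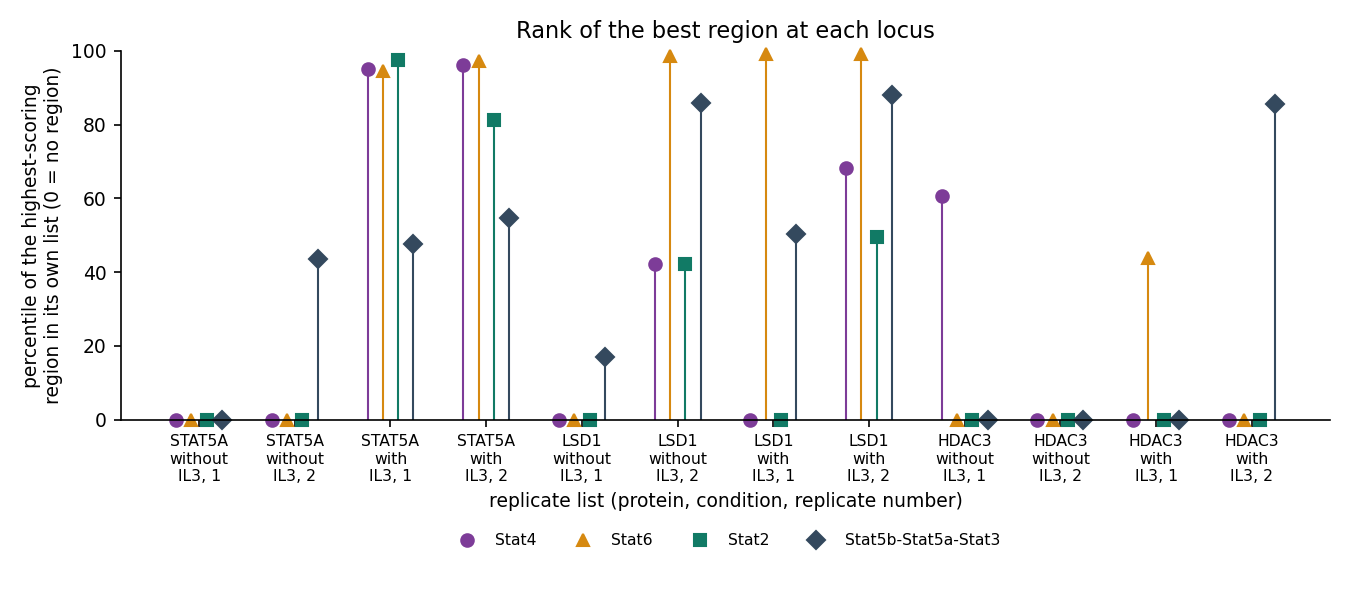
Percentile of the highest-scoring region of each locus within its own replicate list (vertical axis; 100 is the top of the list, 0 means no region), for the 12 replicate lists. With IL3, STAT5A stood at 94.5 to 97.4 in replicate 1 and 81.3 to 97.1 in replicate 2 at Stat4, Stat6 and Stat2, and at 47.6 and 54.8 at the Stat5b-Stat5a-Stat3 locus.

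In no STAT5A or LSD1 list did another of the 6 genes hold more regions inside its bounds than Stat5b (chr11:100780731-100859004, minus strand). Stat3 equalled it at 4 in the pooled LSD1 list without IL3 and at 1 in STAT5A with IL3 replicate 1. Stat5b spans 78274 bp and Stat3 52789 bp. At the Stat5b start, at chr11:100850275-100850642, STAT5A was called in replicate 2 in both conditions, with 20.4 without IL3 (6 steps) and 35.0 with IL3 (7 steps), and in both pooled lists (7 steps each). LSD1 was called there without IL3 in replicate 1 (60.5, rank 837 of 1007) and replicate 2 (39.6, rank 3475 of 15786), in neither replicate with IL3, and in both pooled lists. A further LSD1 site lay 749 bp before the start, with 48.8 without IL3 in replicate 2 (rank 2219 of 15786) and 19.8 and 42.6 with IL3 in replicates 1 and 2 (ranks 3215 of 6479 and 1403 of 11570). Taken over both sites, which lie inside the gene's bounds, each of the 4 LSD1 replicate lists held a region within 1 kb of this start. The other annotated start of Stat5b, at chr11:100822570, had no region of any list in its window.

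At the start of Stat5a (chr11:100859351-100885169, plus strand), LSD1 was called in replicate 2 without IL3 (36.6, rank 4107 of 15786) and with IL3 (18.7, rank 9243 of 11570) and in neither replicate 1. At the start of Stat3 (chr11:100886806-100939594, minus strand), STAT5A was called in replicate 1 with IL3 (29.8, rank 8053 of 13574) and LSD1, at a neighbouring position, in replicate 2 without IL3 (30.5, rank 5997 of 15786). Near the 3′ end of Stat3, 47.7 kb from its start, STAT5A with IL3 replicate 1 (22.4, 6 steps) overlapped LSD1 of replicate 2 without IL3 (21.3, 7 steps) and with IL3 (21.3, 8 steps). These regions lay close to the floor of their lists and each was held by at most 1 replicate of a group. At the far edge of the locus, 42.2 to 44.9 kb from Stat5b, 4 weak sites lay in or at the start of Rab5c, which encodes an endosomal GTPase.

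LSD1 over the whole locus had 1 and 6 regions with IL3 and 1 and 7 without (difference −0.5, exact permutation p = 1). In both conditions the replicates lay 5 or 6 regions apart, more than the conditions did. Stat5a and Stat5b are near-identical over much of their coding sequence, and how the authors treated reads that match both is not given in the sources used here.

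HDAC3 inside Stat5a was the largest count of any protein inside a STAT gene, and it rested on 1 library. Replicate 2 with IL3 held 7 regions inside the gene, which is 2.64% of its 265 regions, and the other 3 HDAC3 replicate lists held 0, 0 and 0. The regions were spread over 22.3 kb of the gene's 25819 bp, at 15 to 46 steps and at ranks 39 to 169 of 265. The highest, at chr11:100879255-100879407, scored 78.7 (46 steps). Across all protein-coding genes, 0.00457% held 7 or more HDAC3 regions in this list, which is Stat5a alone. The threshold of 7 is the count of Stat5a itself, so this share gives its place by number and tests nothing.

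The genes that came next in the same list were Rack1 and Rpl4 with 4 regions each and Eef1a1, Fth1, Rpl8 and Rps3 with 3 each. All are shorter than Stat5a, at 2248 to 5882 bp against 25819 bp. Per 10 kb of gene they held 5.16 to 13.35 regions, and Stat5a held 2.71. Rpl4, Rpl8 and Rps3 encode ribosomal proteins, Rack1 a ribosome-bound scaffold, Eef1a1 a translation elongation factor and Fth1 ferritin heavy chain. HDAC3 without IL3 replicate 2 held 6 regions in Rack1, 3 in Rpl8, 3 in Rps3 and 2 in Fth1, so for these genes, unlike Stat5a and Rpl4, a second HDAC3 list held regions too. These genes were chosen by their counts in this list. The library is the one that stood apart above, and the part of that in the Stat5a regions was not tested.

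Of the 7 regions, 4 were in no other list of the 18 and 3 were shared with the pooled HDAC3 list with IL3 alone. In that pooled list they held 8, 8 and 10 steps against 31, 25 and 46 in the replicate list. A further pooled HDAC3 region, at chr11:100861366-100861518 with IL3 (10 steps), overlapped one of the pooled list without IL3 at chr11:100861356-100861502 (7 steps), 953 bp after the second start site of Stat5a, and no replicate list held either. With replicate 2 with IL3 left out, the HDAC3 replicate lists held no region anywhere at the Stat5b-Stat5a-Stat3 locus.

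**Figure D4:**
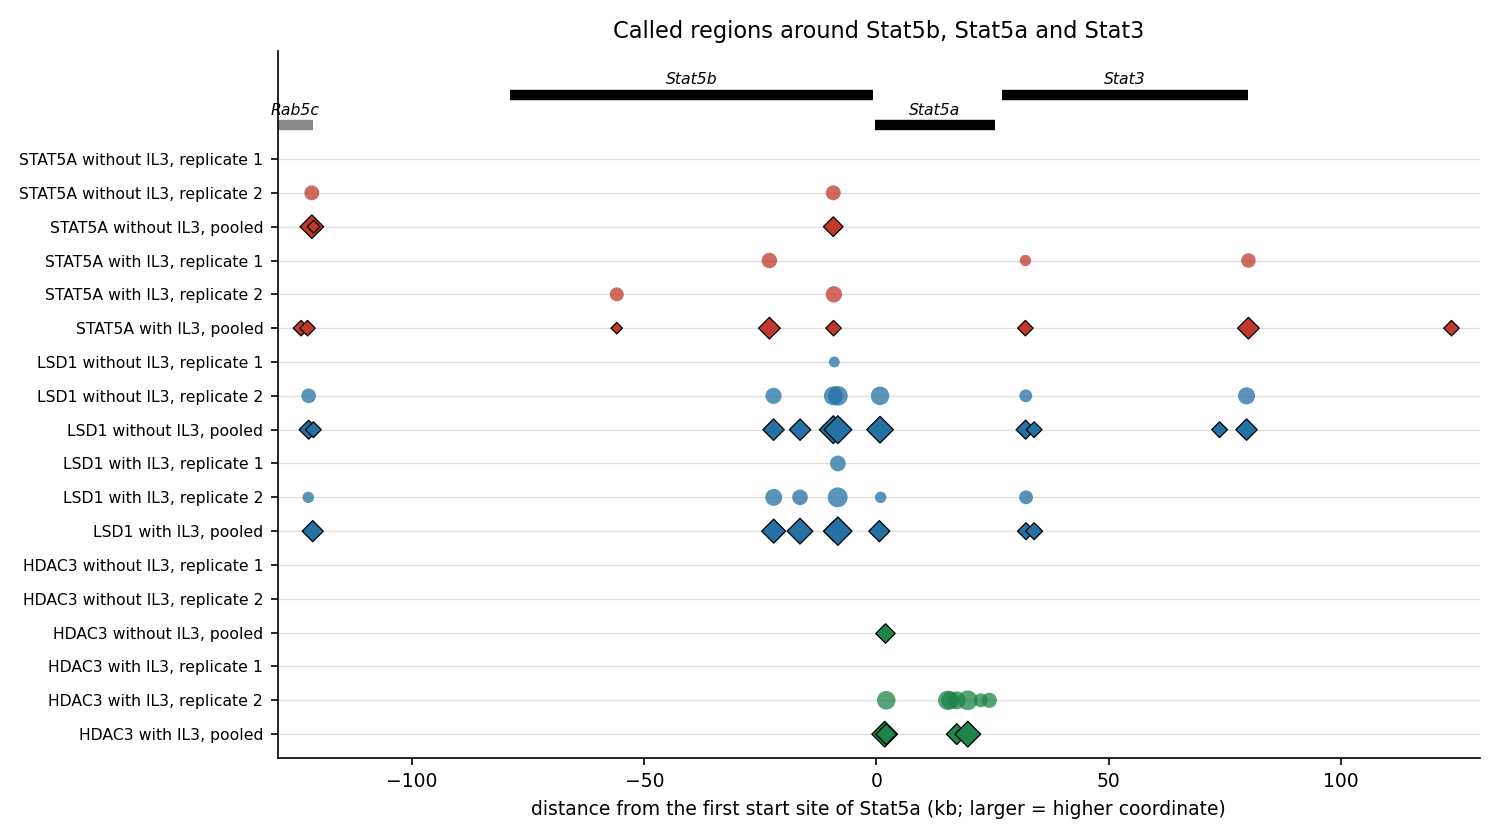
Centres of called regions in the 18 lists (rows) around Stat5b, Stat5a and Stat3 by distance in kb from the first start site of Stat5a, with circles for replicate lists, diamonds for pooled lists and larger symbols for higher places in the list. The 7 HDAC3 circles of replicate 2 with IL3 run along Stat5a, and STAT5A and LSD1 regions lie in Stat5b, in Stat3 and at Rab5c.

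**Figure D5:**
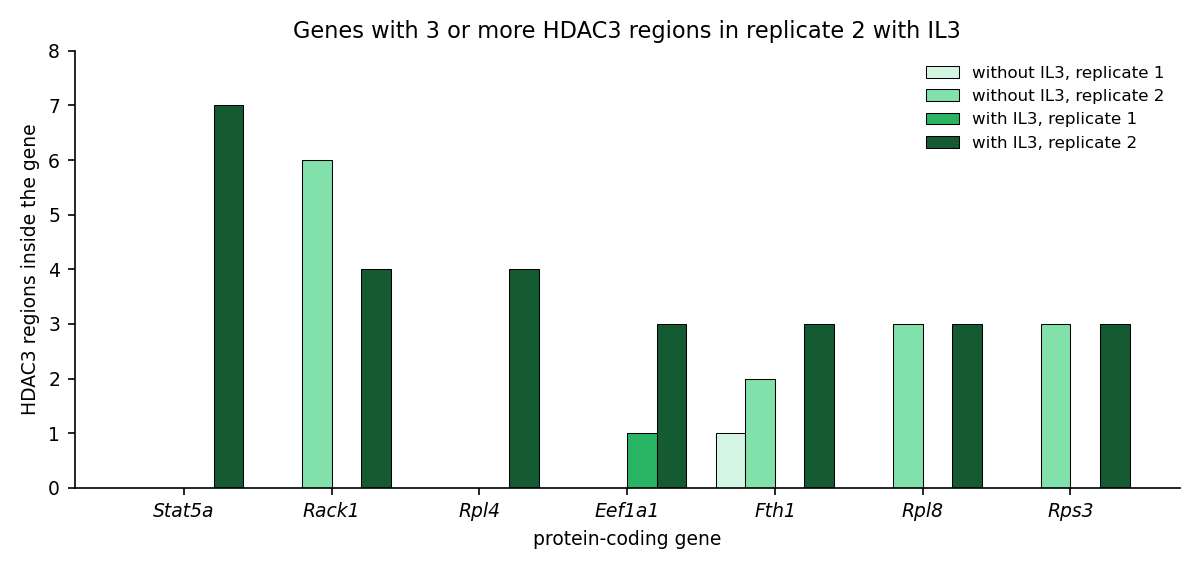
HDAC3 regions inside each gene (vertical axis, bars from 0) in the 4 HDAC3 replicate lists, for the 7 genes with 3 or more in replicate 2 with IL3. Stat5a has 7 in that list and 0 in the other 3, whereas Rack1 has 4 there and 6 in replicate 2 without IL3.

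Of the 47 sites, 38 were of a single protein, 9 held STAT5A and LSD1, and 2 of these 9 held HDAC3 as well. No site was in all 6 pooled lists. In the pooled lists with IL3, 4 of the 15 STAT5A regions at the loci overlapped an LSD1 region (26.7%), against 33.4% over the whole STAT5A list, and 1 of 15 overlapped an HDAC3 region (6.67%), against 4.56%. From the other side, the 4 were 25% of the 16 LSD1 regions at the loci, against 30.4% of the whole LSD1 list, and the 1 was 20% of the 5 HDAC3 regions, against 58.7% of the whole HDAC3 list. The other 4 HDAC3 regions are those inside Stat5a, 3 of them shared with the library that stood apart. In the pooled lists of deprived cells, LSD1 overlapped 3 of 4 STAT5A regions and HDAC3 0 of 4, against 52.5% and 17.1% of the whole STAT5A list. The shares of STAT5A regions with IL3 that overlapped LSD1 and HDAC3 are near those of the whole list and are no result about the STAT genes.

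Called sites differed in how often they came back. A count of 14 sites was in at least 2 replicate lists of any protein, 27 were in a single replicate list, and 6 were in pooled lists alone. The site in Lrp1 was in 6 of the 12 replicate lists, the site at Gm31812 in 5, and the sites at the Nab2 and Stat5b starts in 4 each. Apart from these 4, no site was in more than 3.

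The other genes of the pathway were taken from a list of 25 receptor chains, JAK kinases, inhibitors and phosphatases, chosen with earlier results of these data known. Of the 25, 10 had a gained STAT5A region inside or within 50 kb, beside 15.6% of all genes. A lost one was found at 0 of the 25, beside 0.164% of all genes. The most were at Socs1, Cish and Socs3, which are feedback inhibitors that cytokine signals induce. Of the other SOCS genes in the list, Socs5 and Socs7 had 1 each and Socs2, Socs4 and Socs6 had 0. Socs1 had 5 gained regions, with 13 and 9 STAT5A regions with IL3 and 0 and 1 without. Cish also had 5, with 7 and 7 against 1 and 4, and Socs3 had 4, with 7 and 6 against 1 and 1. Csf2rb2 and Csf2rb, neighbouring genes of the signalling chains of the IL3 receptor that share regions, had 3 and 2, and Jak2, the kinase bound to that receptor, had 2, with 11 and 4 against 1 and 3. These genes are named for their gained regions, so their counts by condition are a description. The STAT genes had at most 1 gained region per locus.

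The genes whose pattern came nearest to each STAT locus were found from the percentile of the highest-scoring region within 50 kb, averaged as an absolute difference over the 12 replicate lists. For Stat6 they were Odf1 (1.93 percentile points), Mrpl39 (3.88) and Hdac4 (4.03), where the median of all genes was 35.5. For Stat2 they were Syt13 (1.0), 1700016H13Rik (1.04) and Pttg1ip2 (1.14), where the median was 22.5. For Stat4 they were the neighbours Kndc1, Utf1 and Spef1l on chromosome 7, at 4.53 each, and for the chromosome 11 locus the neighbours Fance, Rpl10a and Tead3 on chromosome 17, at 8.92 each, where the medians were 28.9 and 31.4. Among 21887 genes small differences arise for loci with regions in few lists, as at Stat2, which had a region in 4 of the 12, and neighbours share the regions that give them the same value.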

How the data were processed

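ChIP-seq regions of STAT5A, LSD1 and HDAC3 in Ba/F3 cells without and with IL3 were used as deposited, in 12 replicate lists and 6 lists of pooled libraries. Per the submitters' processing notes, the tools included HOMER 4.8, Picard 1.92, Bowtie2 2.1.0 and Trimmomatic 0.30, with the mm10 build. How regions were called, and against which control, is not given in the sources used here. The score of each region is the authors' deposited value, and low scores lie within 0.1 of whole multiples of a step. Read depth is not given in the sources used here, and the floor of 4 to 6 steps limits what was detectable.

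Regions were matched to gene bounds and start sites of RefSeq GRCm38.p6, where all 6 genes and all 25 pathway genes were found; exons and introns are not known. Regions off the assembled chromosomes entered ranks and list lengths alone. Tables were handled with pandas 2.3.3 and numpy 2.4.6 in Python 3.11.15. Tests were run with numpy and plots drawn with matplotlib 3.10.9. Overlap meant 1 bp or more. Counts per list were compared by two-sided exact permutation tests; gained regions and overlaps were counted, with no test. The window, merging, overlap and step routines were tested on simulated data. The members and lists were chosen with earlier results of these data known. Named genes are all members, the 3 genes of nearest pattern per locus (on another chromosome or over 1 Mb away) and up to 6 pathway genes with the most gained STAT5A regions. The genes beside Stat5a with several HDAC3 regions, and neighbours of the regions, were named after their values were seen. Alternatives were windows of 10 and 100 kb or the genes alone, stricter and looser overlap, the higher-scoring 50% of every list, lists of equal length, pooled lists, a replicate block and each replicate left out.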

Additional observations from a re-analysis of the deposited data

How the results depend on the processing

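The higher STAT5A number with IL3 kept its direction under every alternative run, and ranged from 6.0 to 13.0 with a replicate left out, but with 2 replicates its test could not reach 0.05. The LSD1 difference (2.5) ranged from −4.5 to 9.5 with a replicate left out. It was −4.5 without replicate 1 without IL3, −1.0 without replicate 2 with IL3, −2.0 in the pooled lists and 0.0 inside the genes alone. At Stat2 it ranged from −2.5 to 0.5 and turned from −1.0 to 0.5 without LSD1 replicate 2 without IL3. At the chromosome 11 locus it ranged from −3.5 to 2.5 and turned from −0.5 to 2.5 without that library and to 2.0 without LSD1 replicate 1 with IL3. The HDAC3 difference (3.5) ranged from 0.5 to 6.5 with a replicate left out, and was 0.5 without replicate 2 with IL3. The causes were not tested.

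The 3 gained STAT5A regions became 0 inside the genes, 1 within 10 kb, 8 within 100 kb and 14 in the pooled lists. The pooled lists also gave 5 gained and 7 lost LSD1 regions, 4 gained and 1 lost HDAC3 regions and 3 lost STAT5A regions, where the replicate lists gave 0. With a replicate left out the gained STAT5A regions ranged from 3 to 14, with 6 without replicate 1 with IL3 and 14 without replicate 2 with IL3. Leaving out any library drops a condition on the count, which can then only stay or rise. The 4 STAT5A regions overlapping LSD1 became 2 with an overlap of at least 50% of the shorter region, 2 of 6 in the higher-scoring 50% of every list, 1 with the LSD1 list of library number 1 in place of the pooled list, 2 of 4 inside the genes and 7 of 26 within 100 kb. The 1 overlapping HDAC3 became 0 in the higher-scoring 50%, with the HDAC3 list of library number 2, inside the genes and within 10 kb.

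Replicate numbers are shared between conditions, but nothing in the labels says that a number marks a shared culture. Deviations of same-numbered libraries correlated at 0.34 for STAT5A, −0.09 for LSD1 and 0.03 for HDAC3. With the replicate number as a block the differences stayed 9.5, 2.5 and 3.5, with exact sign-flip permutation p of 0.5, 1 and 1, where 0.5 is the smallest that 2 pairs allow.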
